A study of Mus musculus with 12 samples.

Results

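The genes described here are the itaconate synthase Acod1 and 8 enzymes or carriers of citrate, isocitrate and malate, namely Cs, Aco1, Idh1, Idh2, Idh3a, Mdh1, Mdh2 and Slc25a1. They were found by symbol among the 56748 mouse genes of the deposited count matrix, and all 9 had a row and entered the test. M2-like polarized bone marrow-derived macrophages (BMDM) from C57BL/6J mice were cultured for 72 hours under 4 conditions, with 3 libraries of bulk RNA sequencing each. One condition received unsupplemented medium (untreated control). A further condition received culture supernatant from YUMM5.2 eGFP cells, a mouse melanoma line carrying a lentiviral tetracycline-responsive eGFP vector (eGFP supernatant). The remaining 2 received IFNβ at 1500 pg/mL, either as supernatant from YUMM5.2 Ifnb1eGFP cells, whose vector also holds Ifnb1 (Ifnb1eGFP supernatant, the source of tumoral IFNβ), or as the recombinant protein (rIFNβ). Both supernatants were collected after the tumor cells had been kept for 72 hours with 1 µg/mL doxycycline (Dox), and they were diluted at the same ratio, so Dox can be present in both supernatant conditions and in neither of the others. All macrophages had been grown with 20 ng/mL M-CSF and polarized with 10 ng/mL IL-4 for 48 hours, so every value below, the controls included, comes from IL-4-treated cells. The design text gives 3 mice per condition and does not say whether 1 mouse served several conditions.

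The tricarboxylic acid (TCA) cycle condenses acetyl-CoA with oxaloacetate to citrate, isomerizes citrate through cis-aconitate to isocitrate, and oxidizes it stepwise back to oxaloacetate by way of malate. Several steps have separate mitochondrial and cytosolic enzymes, and citrate and malate leave the mitochondrion through carriers to feed lipid synthesis and cytosolic redox reactions. In macrophages Acod1 (aconitate decarboxylase, also called Irg1) diverts cis-aconitate to itaconate, a metabolite that inhibits succinate dehydrogenase and is known from cells activated by bacterial products and interferons.

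Library totals ran from 31526034 to 45348457 estimated reads. All 7 macrophage markers listed were expressed in every condition. Of these, 4 (Fcgr1, Cd68, Mertk and Adgre1) were higher and 2 (Lyz2 and Itgam) lower in each comparison with IFNβ, with a median log2 fold change of 0.21 between the supernatants and 0.18 for rIFNβ against untreated control. Their summed level, to which Lyz2 contributed most, was 14121 to 15262 counts per 1000000 of the scaled library total (CPM) untreated and 17928 to 18457 with eGFP supernatant, against 10286 to 10581 with Ifnb1eGFP supernatant and 9648 to 9821 with rIFNβ. The 4 M2 markers, led by Mrc1, summed to 738 to 1019 CPM over the 12 libraries. The 8 interferon-stimulated genes used as a check of the labels, led by Rsad2, summed to between 8081 and 9202 CPM in the 6 libraries with IFNβ. Without IFNβ they summed to between 62.3 and 129 CPM in 5 libraries, while eGFP supernatant replicate 2 stood apart at 630 CPM. The Acod1 results that use this library, and calls of named genes lost without it, are therefore given with and without it. The 2 farthest-apart libraries of 1 condition were replicates 1 and 2 of Ifnb1eGFP supernatant, and none of the replicate pairs was alike enough to be 1 library deposited in duplicate. Neutrophil markers (7 listed, led by S100a8) summed to 4.28 to 5.72 CPM in the libraries without IFNβ and to 0.208 to 0.985 CPM with it. The 4 dendritic cell markers, led by Zbtb46, summed to 1.22 to 1.61 CPM without IFNβ and 0.273 to 0.430 with it. Fibroblast markers (4 listed, led by Dcn) summed to 19.5 to 44.2 CPM without IFNβ and 33.4 to 57.6 with it, 2 of them higher and 1 lower between the supernatants and 2 higher and 2 lower with rIFNβ. Melanoma markers (5 listed, led by Pmel) stayed at or under 0.810 CPM, and T and NK cell, B cell and erythroid markers at or under 0.329 CPM. Each listed marker had a count in at least 1 library. Single macrophage and fibroblast markers moved in both directions with IFNβ, the neutrophil and dendritic cell sums were lower with it, and the part of these markers in the results below was not tested. In bulk RNA, fewer cells of a type and less RNA per cell cannot be told apart.

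With IFNβ, the itaconate synthase gene rose and 7 of the 8 other genes fell, whichever source the cytokine came from. In the comparison of Ifnb1eGFP with eGFP supernatant, 8 of 9 genes passed an adjusted p-value of 0.05 (edgeR quasi-likelihood test, Benjamini-Hochberg adjustment over 15033 genes), 1 higher and 7 lower. Of all genes tested, 55.1% passed in this comparison, 30.1% higher and 25% lower. In the comparison of rIFNβ with untreated control the count was again 8 of 9, 1 higher and 7 lower, against 55.3% of all genes, 30.7% higher and 24.6% lower. The gene called higher, Acod1, entered the test only through libraries with IFNβ, so its call supports nothing and its counts are described below. The median log2 fold change of the 9 genes was −0.46 in both comparisons, against 0.03 and 0.04 over all genes tested. The 9 genes were chosen with earlier results of these data known, so these counts and medians describe the list and are not support. The study itself applied cutoffs of 2 or more log2 units in either direction and 0.01 for the adjusted p, with DESeq2. When these cutoffs were put on the edgeR values, Acod1 alone passed in each comparison, where 5.39% and 5.77% of all genes did. The IFNβ comparisons share no libraries with each other. They were fitted together with 1 estimate of the spread per gene, and whether they share mice is not given.

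**Figure D1:**
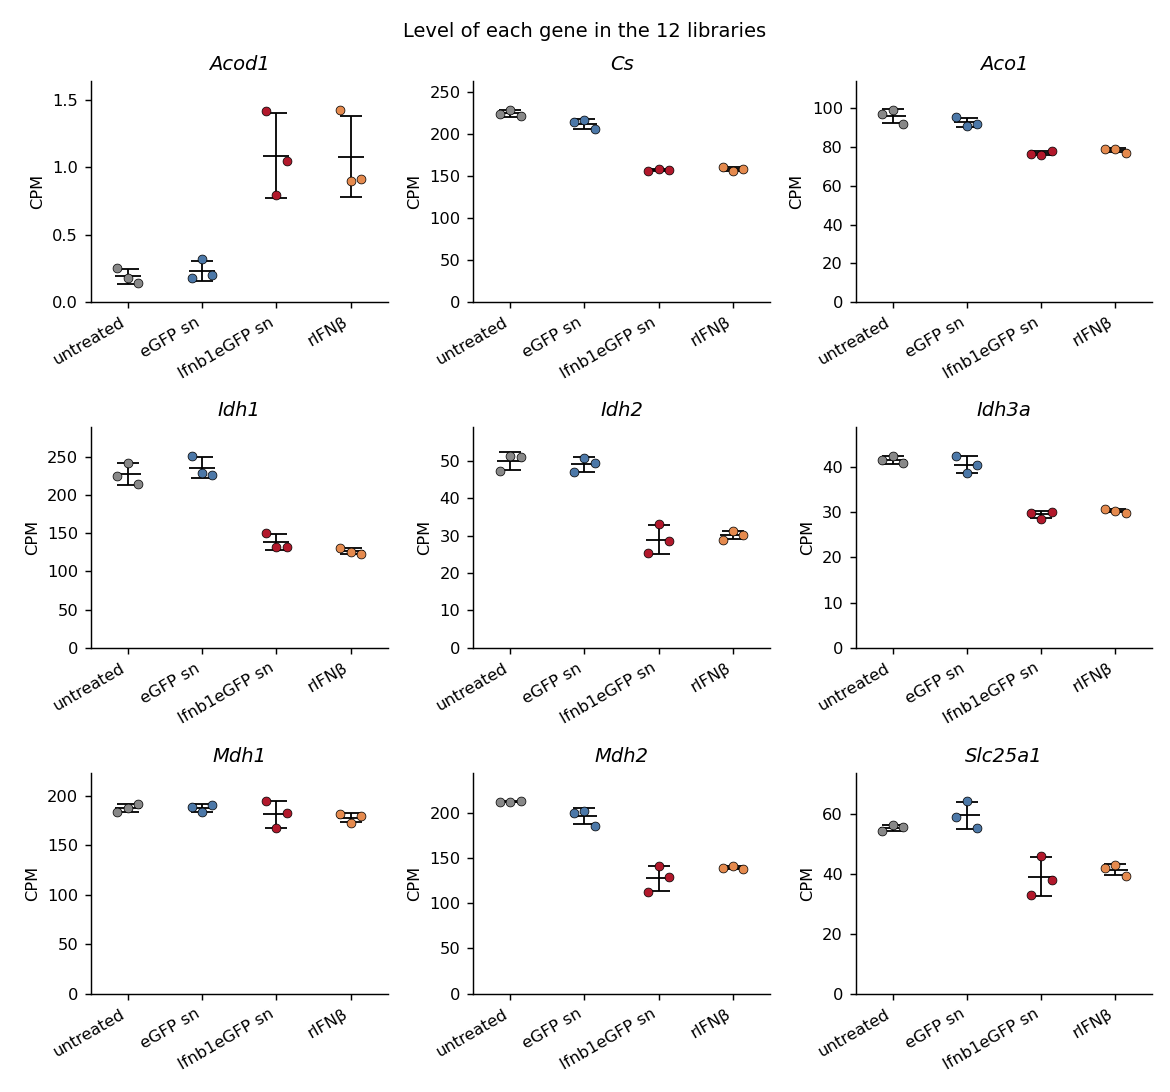
Level of each gene in CPM (vertical axes, each starting at 0) in the 12 libraries, by condition on the horizontal axis. Points are libraries in the order of their replicate numbers, horizontal lines the mean of 3 libraries and bars 1 SD. Acod1 lies at 0.142 to 0.317 CPM without IFNβ and at 0.795 to 1.42 CPM with it, the Mdh1 libraries lie between 167 and 194 CPM throughout, and the other 7 genes are lower in all 6 libraries with IFNβ. The share of all tested genes separated in this way was not counted, so here and below such separation is a description and not support. It also occurred without a call, as for Mdh1 between rIFNβ and untreated control.

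Acod1 (ENSMUSG00000022126, chr14:103284413-103294009, plus strand, GRCm39) was the scarcest of the 9 genes and the one gene that rose. Untreated libraries held 8, 6 and 6 counts (0.254, 0.176 and 0.142 CPM). Libraries with eGFP supernatant held 7, 13 and 8 counts (0.177, 0.317 and 0.201 CPM). With Ifnb1eGFP supernatant there were 56, 32 and 48 counts (1.42, 0.795 and 1.04 CPM), and with rIFNβ 48, 40 and 36 counts (1.42, 0.90 and 0.910 CPM). Every library with IFNβ therefore lay above every library without it, at levels that remained near 1 CPM. As a description, the fitted log2 fold change was 2.21 (SE 0.33) between the supernatants, a 4.62-fold difference. Between rIFNβ and untreated control it was 2.50 (SE 0.35), a 5.65-fold difference. Without eGFP supernatant replicate 2, the library with the highest Acod1 value among those not given IFNβ, the value between the supernatants became 2.50.

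These Acod1 values rest on few reads and carry the largest error of the 9 genes. The filter on low counts asked for about 0.251 CPM in at least 3 libraries, the size of 1 condition. Of the libraries without IFNβ 2 of 6 reached that level, and of those with it 6 of 6. Acod1 therefore entered the test only through libraries with IFNβ. The calls of Acod1 with IFNβ are thus not support for a rise, and its p-values there are not given. Its counts per library and fold changes are given as a description. Its biological coefficient of variation in the fit was 22%, against 4.35% to 8.82% for the others. By mean level, 3.09% of the tested genes lay below Acod1 in untreated cells and 4.45% with eGFP supernatant, compared with 21.4% with Ifnb1eGFP supernatant and 20.9% with rIFNβ. By absolute log2 fold change it ranked 736 and 642 of 15033 in the 2 IFNβ comparisons. A long non-coding RNA gene, Gm41235, overlaps Acod1 on the opposite strand over 4540 bases. The library kit marks strand, but whether the counting used it is not given in the sources used here, so reads of both genes cannot be told apart with certainty.

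Promoter sequence differed between Acod1 and the other genes in base composition. The windows searched, from RefSeq on GRCm38.p6, span 250 bases before to 50 after a gene's start, and 9 windows matched 8 of the 9 genes, with 2 for Idh1 and no entry for Idh3a. Acod1 had 47.0% G+C and an observed-to-expected CpG ratio of 0.121, whereas the other 8 windows had 58.7% to 69.3% and 0.470 to 0.948. Medians over all 32851 promoter windows were 52.7% and 0.384. The 250 bases upstream of the start are shown for the gene that rose (Acod1, chr14:103046762-103047011, plus strand), for the gene that did not pass the test (Mdh1, chr11:21571935-21572184, minus strand) and for its mitochondrial counterpart that fell (Mdh2, chr5:135778399-135778648, plus strand), 5′ to 3′, with capitals marking CCAAT or TATAAA read on either strand.
Acod1: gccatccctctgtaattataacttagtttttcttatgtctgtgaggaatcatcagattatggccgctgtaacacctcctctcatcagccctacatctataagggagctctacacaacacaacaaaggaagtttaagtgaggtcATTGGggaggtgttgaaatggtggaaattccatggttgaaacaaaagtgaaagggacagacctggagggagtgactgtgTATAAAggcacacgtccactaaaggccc
Mdh1: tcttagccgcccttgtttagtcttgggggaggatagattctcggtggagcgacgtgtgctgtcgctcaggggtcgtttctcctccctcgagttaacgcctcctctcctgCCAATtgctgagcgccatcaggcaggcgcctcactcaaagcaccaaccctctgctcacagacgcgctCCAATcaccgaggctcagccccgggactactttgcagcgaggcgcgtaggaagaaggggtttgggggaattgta
Mdh2: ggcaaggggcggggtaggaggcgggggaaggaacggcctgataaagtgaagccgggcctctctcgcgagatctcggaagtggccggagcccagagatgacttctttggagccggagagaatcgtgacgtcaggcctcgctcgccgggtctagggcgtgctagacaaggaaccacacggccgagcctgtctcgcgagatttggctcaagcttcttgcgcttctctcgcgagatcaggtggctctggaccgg
The letters TATAAA were found in the Acod1 window and in none of the other 8, and in 13.6% of all windows. CCAAT was found in 6 of the 9 windows, the Acod1 and Mdh1 windows among them, and in 37.4% of all windows. The interferon-stimulated response element core GAAANNGAAA (3.44% of all windows), the gamma-activated site TTCNNNGAA (8.3%) and the sterol regulatory element TCACNCCAC (1.24%) were found in none of the 9. Both strands were searched, and a match or its absence describes only the letters in these windows.

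Citrate synthase and cytosolic aconitase fell modestly and with little spread. Cs (ENSMUSG00000005683, chr10:128172837-128198363, plus strand) encodes the enzyme that makes citrate at the entry to the cycle. Its level was 224, 229 and 222 CPM in untreated libraries, 215, 216 and 206 CPM with eGFP supernatant, then 156, 159 and 157 CPM in cells given Ifnb1eGFP supernatant and 161, 156 and 159 CPM in cells given rIFNβ. The highest library with IFNβ was thus well below the lowest without it. Cs fell by 0.43 on the log2 scale (SE 0.04, adjusted p = 1.17e-06) between the supernatants and by 0.50 (SE 0.04, adjusted p = 3.27e-07) with rIFNβ. Cs was the single gene of the 9 with estimated counts that were not whole, in 11 of 12 libraries and by at most 0.26 of a read. On the opposite strand Coq10a (56 bases), Gm56959 (1518) and Gm67264 (670) overlap Cs, and on the same strand Gm23182 (135).

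Aco1 (ENSMUSG00000028405, chr4:40142998-40199010, plus strand) encodes the cytosolic aconitase, which doubles as iron regulatory protein 1 when it lacks its iron-sulfur cluster. Untreated libraries had 97.1, 99.2 and 92.1 CPM and those with eGFP supernatant 95.4, 91.1 and 92.1 CPM. In cells given Ifnb1eGFP supernatant the values were 76.5, 76.1 and 77.9 CPM, and with rIFNβ 78.8, 79.1 and 77.1 CPM. The 6 libraries with IFNβ lay between 76.1 and 79.1 CPM, below all 6 without it. Aco1 had the smallest change among the genes that fell, by 0.27 on the log2 scale (SE 0.04, adjusted p = 0.000102) between the supernatants and by 0.30 (SE 0.04, adjusted p = 5.28e-05) with rIFNβ.

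The 3 isocitrate dehydrogenase genes among the 9 fell. Log2 fold changes were larger for the 2 NADP-dependent enzymes than for Idh3a, a subunit of the NAD-dependent enzyme, a difference between genes that was not tested. Idh1 (ENSMUSG00000025950, chr1:65196781-65225721, minus strand) encodes the cytosolic NADP-dependent enzyme. It was at 225, 242 and 214 CPM untreated, 251, 229 and 227 CPM with eGFP supernatant, then 150.5, 132 and 132 CPM in cells given Ifnb1eGFP supernatant and 130.5, 125 and 123 CPM with rIFNβ. Among the 9 genes it had the largest decrease in both IFNβ comparisons, by 0.77 on the log2 scale between the supernatants (SE 0.07, adjusted p = 1.88e-06, 1.70-fold lower) and by 0.85 with rIFNβ (SE 0.07, adjusted p = 7.56e-07, 1.80-fold lower). Between the supernatants Idh2 was almost level with Idh1, at −0.76 (SE 0.08), so their order there is not settled.

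Idh2 (ENSMUSG00000030541, chr7:79741431-79765535, minus strand) encodes the mitochondrial NADP-dependent enzyme. Its untreated libraries had 47.3, 51.5 and 51.2 CPM and the eGFP supernatant libraries 47.0, 50.8 and 49.4 CPM. With Ifnb1eGFP supernatant the values spread from 25.3 CPM in replicate 1 and 28.5 CPM in replicate 3 to 33.0 CPM in replicate 2, and with rIFNβ they were 29.0, 31.3 and 30.3 CPM. The groups with and without IFNβ did not overlap, although the Ifnb1eGFP supernatant group had the widest spread, with an SD of 3.87 CPM around a mean of 29.0 CPM (n = 3). Idh2 fell by 0.76 on the log2 scale (SE 0.08, adjusted p = 1.09e-05) between the supernatants and by 0.73 (SE 0.08, adjusted p = 1.55e-05) with rIFNβ. The gene Zfp710 overlaps Idh2 on the opposite strand over 2491 bases, and Gm45203 on the same strand over 1831 bases.

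Idh3a (ENSMUSG00000032279, chr9:54493575-54514730, plus strand) encodes the catalytic subunit of the mitochondrial NAD-dependent enzyme, the form that runs within the cycle. Its values were 41.5, 42.5 and 40.8 CPM untreated, 42.4, 38.7 and 40.4 CPM with eGFP supernatant, then 29.8, 28.6 and 30.1 CPM in cells given Ifnb1eGFP supernatant and 30.6, 30.3 and 29.9 CPM with rIFNβ. The 6 libraries with IFNβ clustered tightly below the other 6. Idh3a fell by 0.46 on the log2 scale in both IFNβ comparisons (SE 0.04 in each, adjusted p = 4.54e-06 between the supernatants and 4.35e-06 with rIFNβ). The partner subunit genes Idh3b and Idh3g did not pass the test in either comparison. Acsbg1 overlaps Idh3a on the opposite strand over 3891 bases.

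The malate dehydrogenases parted, with the mitochondrial gene lower and the cytosolic gene not passing the test. Mdh2 (ENSMUSG00000019179, chr5:135807292-135820882, plus strand) encodes the mitochondrial enzyme that regenerates oxaloacetate. It was at 212, 212 and 213 CPM untreated, 200.3, 202 and 186 CPM with eGFP supernatant, then 113, 141 and 129 CPM in cells given Ifnb1eGFP supernatant and 139, 141 and 137 CPM with rIFNβ. All libraries with IFNβ were below those without, and replicate 1 of Ifnb1eGFP supernatant was the lowest. Mdh2 fell by 0.62 on the log2 scale (SE 0.07, adjusted p = 1.22e-05) between the supernatants and by 0.61 (SE 0.07, adjusted p = 1.4e-05) with rIFNβ.

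Mdh1 (ENSMUSG00000020321, chr11:21506423-21522367, minus strand) encodes the cytosolic enzyme of the malate-aspartate shuttle. Untreated libraries had 183, 187 and 192 CPM and eGFP supernatant libraries 189, 183 and 191 CPM. With Ifnb1eGFP supernatant the values were 194, 167 and 183 CPM, so that replicate 1 was the highest and replicate 2 the lowest of all 12 libraries, and with rIFNβ they were 181, 173 and 179 CPM. The supernatant groups overlapped, while the rIFNβ libraries lay narrowly below the untreated ones. The log2 fold change was −0.05 between the supernatants (SE 0.05, 95% interval −0.16 to 0.07, adjusted p = 0.452) and −0.08 with rIFNβ (SE 0.05, 95% interval −0.19 to 0.04, adjusted p = 0.242). A change of the size seen in Mdh2 lay outside both intervals. When only the untreated and rIFNβ libraries were fitted, Mdh1 passed the threshold at −0.11 (adjusted p = 0.0317). Wdpcp overlaps Mdh1 on the opposite strand over 679 bases, and Gm56409 on the same strand over 89 bases.

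Slc25a1 (ENSMUSG00000003528, chr16:17743075-17746245, minus strand) encodes the mitochondrial citrate carrier, which exports citrate in exchange for malate. Its level was 54.3, 56.3 and 55.5 CPM untreated and 59.1, 64.2 and 55.4 CPM with eGFP supernatant. With Ifnb1eGFP supernatant it was 33.0, 46.0 and 38.1 CPM, the widest relative spread after Acod1 with an SD of 6.55 CPM around 39.1 CPM (n = 3), and with rIFNβ 41.9, 42.8 and 39.4 CPM. The groups with and without IFNβ did not overlap. Slc25a1 fell by 0.61 on the log2 scale (SE 0.10, adjusted p = 0.00029) between the supernatants and by 0.42 (SE 0.10, adjusted p = 0.00369) with rIFNβ.

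**Figure D2:**
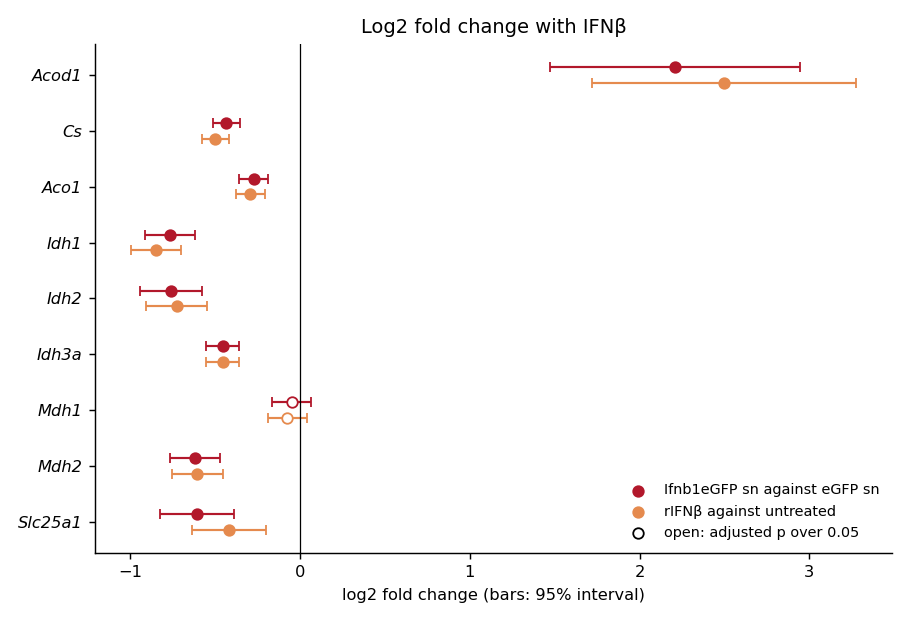
Log2 fold change of each gene with IFNβ (horizontal axis), for Ifnb1eGFP against eGFP supernatant and for rIFNβ against untreated control, with 95% intervals as bars and open points where the adjusted p was over 0.05. Acod1 lies at 2.21 and 2.50, Mdh1 at −0.05 and −0.08 as open points, and the other 7 genes between −0.27 and −0.85. The filled points of Acod1 are not support, because it entered the test only through libraries with IFNβ.

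The response to IFNβ was compared between its sources, which asks whether tumor cell supernatant altered it. The interaction, that is the log2 fold change between the supernatants minus that between rIFNβ and untreated control, did not pass the test for any of the 9 genes, and for none of them at an unadjusted p under 0.05 either, while 0% of all genes passed. The interaction of Acod1 was −0.29, with a 95% interval of −1.39 to 0.81 (adjusted p = 0.929), which for this scarce transcript reaches past 1 log2 unit. Without eGFP supernatant replicate 2 it was 0.0037, so its size and sign rest on that library. For the other 8 genes the intervals were narrower. Slc25a1 had −0.19 (95% interval −0.50 to 0.12) and Idh1 0.08 (−0.13 to 0.29), and Idh3a had 0.00 (−0.14 to 0.14).

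For tumor cell supernatant without IFNβ, none of these genes was called against untreated control. In eGFP supernatant against untreated control, 0 of 9 genes passed the adjusted threshold and 1, Cs, had an unadjusted p under 0.05, while 0.299% of all genes passed. Its log2 fold change was −0.08 (95% interval −0.16 to −0.0044, adjusted p = 0.597). Mdh2 had a log2 fold change of −0.11 (95% interval −0.26 to 0.04). For both Cs and Mdh2, all libraries with eGFP supernatant lay below all untreated ones. For Acod1 the log2 fold change was 0.31 (95% interval −0.60 to 1.21, adjusted p = 0.968), an interval that reaches past 1 log2 unit. Without eGFP supernatant replicate 2 the Acod1 value was 0.01.

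Ifnb1eGFP supernatant and rIFNβ, which carried the same IFNβ concentration, did not differ past the threshold in any of the 9 genes, and 0 of them reached an unadjusted p under 0.05, while 0.16% of all genes passed. Acod1 differed by 0.02 on the log2 scale, with a 95% interval of −0.61 to 0.65 (adjusted p = 0.989). The 2 largest differences were those of Idh1 and Mdh2. Idh1 was 0.13 higher with Ifnb1eGFP supernatant (95% interval −0.01 to 0.28, adjusted p = 0.601). Mdh2 was at −0.13 (95% interval −0.27 to 0.02, adjusted p = 0.616). Averaging both supernatant comparisons gave 0 of 9 genes past the threshold and 1, Mdh2, with an unadjusted p under 0.05 (log2 fold change −0.12, 95% interval −0.22 to −0.01, adjusted p = 0.372), while 0.905% of all genes passed.

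**Figure D3:**
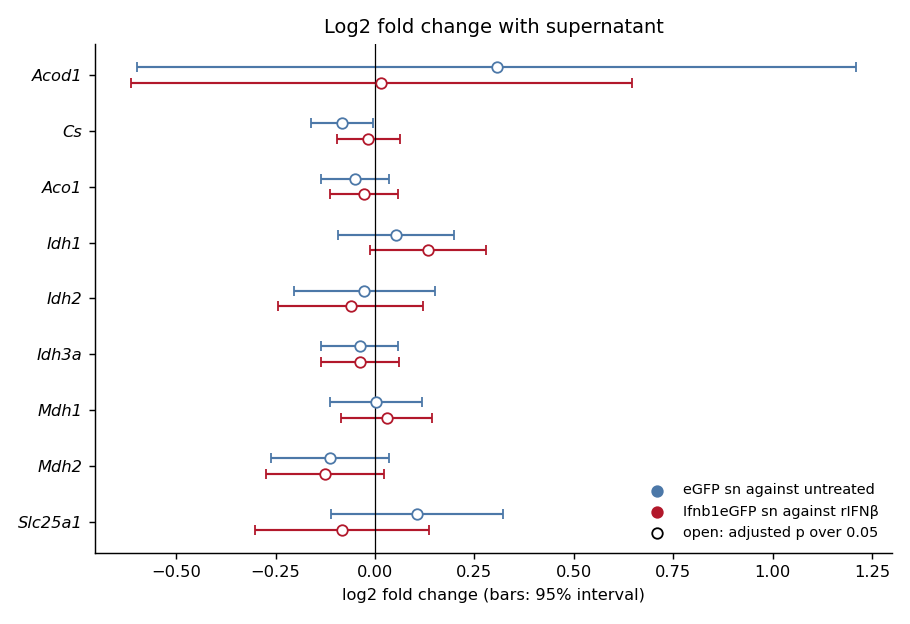
Log2 fold change of each gene with tumor cell supernatant (horizontal axis), either without IFNβ (eGFP supernatant against untreated control) or with it (Ifnb1eGFP supernatant against rIFNβ), with 95% intervals as bars. All points are open because no adjusted p was at or under 0.05, and the Acod1 intervals, −0.60 to 1.21 and −0.61 to 0.65, are the widest.

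Levels were set side by side between genes only after division by exon length (CPM per kb, GENCODE M39 exon union). That length merges the exons of all annotated transcripts of a gene, used or not, so the order between genes also depends on the annotation. In untreated cells the order was Mdh1 (40.0 ± 0.871 CPM per kb, SD, n = 3), Mdh2 (39.4 ± 0.109), Cs (35.4 ± 0.591), Idh1 (34.1 ± 2.16), Slc25a1 (23.0 ± 0.419), Aco1 (12.2 ± 0.461), Idh2 (5.90 ± 0.273), Idh3a (5.07 ± 0.103) and Acod1 (0.0727 ± 0.0220). Judged by overlap of mean ± SD, neighbours Mdh1 and Mdh2, and Cs and Idh1, did not differ beyond their spread. With eGFP supernatant the order was the same except that Idh1 (35.3 ± 2.08) had a higher mean than Cs (33.4 ± 0.902), again within their spread. With Ifnb1eGFP supernatant Mdh1 stood alone at the top at 38.7 ± 2.88 CPM per kb, followed by Cs (24.7 ± 0.214), Mdh2 (23.7 ± 2.61) and Idh1 (20.8 ± 1.57), of which neither Cs and Mdh2 nor Mdh2 and Idh1 differed beyond their spread. The order with rIFNβ was again led by Mdh1 (37.9 ± 0.939), ahead of Mdh2 (25.9 ± 0.339) and Cs (25.0 ± 0.398). Idh3a and Idh2, next to last, overlapped in both conditions with IFNβ. Acod1 was last in every condition, at 0.413 ± 0.119 CPM per kb with Ifnb1eGFP supernatant and 0.411 ± 0.114 with rIFNβ.

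Ratios of counts within a library describe how paired enzymes moved relative to each other, and as differences across conditions they do not depend on exon length. The log2 ratio of Mdh1 to Mdh2 was −0.21, −0.17 and −0.15 in untreated libraries and −0.08, −0.14 and 0.04 with eGFP supernatant. It was 0.78, 0.25 and 0.50 with Ifnb1eGFP supernatant and 0.38, 0.29 and 0.38 with rIFNβ. The cytosolic gene thus made up more of the pair in all 6 libraries with IFNβ. The log2 ratio of Idh1 to Idh2, which both fell, overlapped within both IFNβ comparisons, with means of 2.18, 2.26, 2.26 and 2.06 in untreated, eGFP supernatant, Ifnb1eGFP supernatant and rIFNβ cells. These ratios are descriptions and were given no test.

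**Figure D4:**
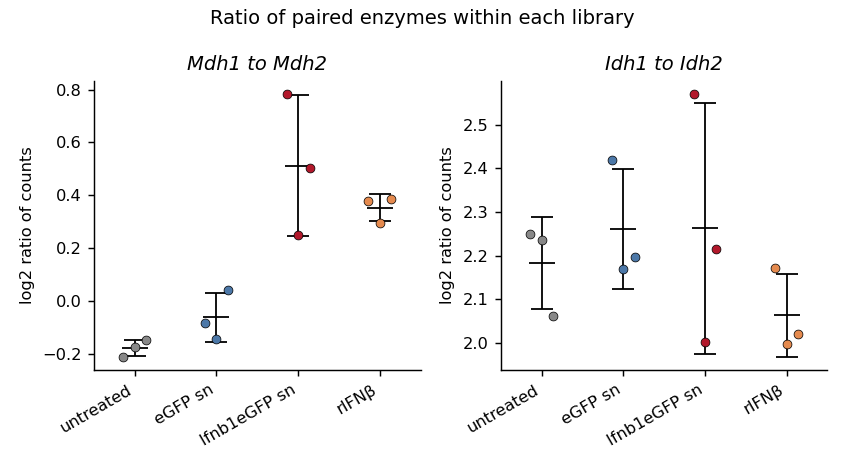
Log2 ratio of counts within each library (vertical axes, which do not start at 0) for Mdh1 to Mdh2 and Idh1 to Idh2, by condition. Points are libraries, horizontal lines means of 3 and bars 1 SD, and Mdh1 to Mdh2 separates the libraries with IFNβ from those without, while Idh1 to Idh2 overlaps within both IFNβ comparisons.

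The rest of the pathway was described from 6 lists of 47 genes, 46 of them tested. Between the supernatants 30 of the 46 passed, 4 higher and 26 lower, with a median log2 fold change of −0.19, and with rIFNβ 30 passed, 3 higher and 27 lower, with a median of −0.23. That is 65.2% called in each comparison, against 55.1% and 55.3% of all genes, with 56.5% and 58.7% lower against 25% and 24.6% of all genes. These lists, too, were chosen with earlier results of these data known, so the shares here and below describe them and are not support. None of the 46 passed in eGFP supernatant against untreated control, in Ifnb1eGFP supernatant against rIFNβ, in their average or in the interaction, where 0.299%, 0.16%, 0.905% and 0% of all genes passed, shares from which few or no calls among 46 genes would come.

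Other TCA cycle subunits numbered 14, of which 9 fell and 2 rose between the supernatants, and 8 fell and 1 rose with rIFNβ, which is 78.6% and 64.3% called against 55.1% and 55.3% of all genes. Fh1, fumarase, fell by 0.41 (adjusted p = 2.02e-05) between the supernatants and by 0.60 (adjusted p = 7.49e-07) with rIFNβ on the log2 scale. Suclg2, the GTP-forming subunit of succinyl-CoA ligase, went the other way, from 18.2 ± 0.252 CPM (SD, n = 3 here and for the values that follow) to 29.6 ± 1.78 CPM between the supernatants (0.70, adjusted p = 4.88e-07) and from 17.7 ± 0.0492 to 30.6 ± 1.01 CPM with rIFNβ (0.79, adjusted p = 1.71e-07). Dld, a dehydrogenase subunit shared by several complexes, rose by 0.16 between the supernatants (adjusted p = 0.0162), a call lost without eGFP supernatant replicate 2 (0.13, adjusted p = 0.0672) or Ifnb1eGFP supernatant replicate 1 (0.07, adjusted p = 0.239) and under 4 other settings, and it had 0.10 with rIFNβ (adjusted p = 0.0959).

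Of 14 genes of pyruvate entry, 5 fell and 1 rose between the supernatants, and 7 fell and 1 rose with rIFNβ. The shares called, 42.9% and 57.1%, lay below and near the 55.1% and 55.3% of all genes. Pdk1, a kinase that inhibits pyruvate dehydrogenase, fell from 107 ± 3.40 to 33.0 ± 0.617 CPM between the supernatants (log2 fold change −1.69, adjusted p = 4.76e-10) and from 121 ± 5.62 to 32.6 ± 1.48 CPM with rIFNβ (−1.90, adjusted p = 2.16e-10). Mpc1, a subunit of the mitochondrial pyruvate carrier, fell from 117 ± 5.38 to 56.8 ± 5.09 CPM (−1.05, adjusted p = 1.89e-07) and from 122 ± 7.61 to 53.0 ± 1.95 CPM (−1.20, adjusted p = 5.82e-08). The gene counted as higher was Pdk4, a further kinase of pyruvate dehydrogenase, which was barely detected. It had 1, 2 and 2 counts untreated, 3, 0 and 2 with eGFP supernatant, 7, 8 and 15 with Ifnb1eGFP supernatant and 17, 8 and 17 with rIFNβ. Its libraries without IFNβ held at most 0.0758 CPM, under the 0.251 CPM of the filter, so it entered the test only through libraries with IFNβ, its call supports nothing, and no fold or p-value is given.

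Cytosolic users of citrate and malate (4 genes) had 3 lower between the supernatants and 4 lower with rIFNβ, where 25% and 24.6% of all genes were lower. Me1, cytosolic malic enzyme, fell from 7.63 ± 0.558 to 4.66 ± 0.789 CPM (log2 fold change −0.71, adjusted p = 0.000896) and from 8.76 ± 0.283 to 5.05 ± 0.782 CPM (−0.80, adjusted p = 0.000375). Acaca, acetyl-CoA carboxylase of fatty acid synthesis, fell by 0.46 (adjusted p = 0.00656) and 0.70 (adjusted p = 0.000392) on the log2 scale. Glutamine entry and the malate-aspartate shuttle (9 genes) had 6 lower and 1 higher between the supernatants and 5 lower and 1 higher with rIFNβ, which is 77.8% and 66.7% called against 55.1% and 55.3% of all genes. Slc1a5, a glutamine transporter, fell from 53.6 ± 0.593 to 19.3 ± 2.16 CPM (−1.47, adjusted p = 1.09e-08) and from 61.2 ± 0.691 to 22.1 ± 0.702 CPM (−1.47, adjusted p = 9.18e-09). Slc25a13, a mitochondrial aspartate-glutamate carrier, fell by 0.85 (adjusted p = 4.71e-08) and 0.94 (adjusted p = 2.05e-08). Got1, the cytosolic aspartate aminotransferase that works with Mdh1 in the shuttle, rose from 52.3 ± 2.43 to 71.1 ± 1.86 CPM (0.44, adjusted p = 1.26e-05) and from 49.5 ± 2.35 to 62.9 ± 1.52 CPM (0.35, adjusted p = 9.27e-05).

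Of the 3 genes of itaconate breakdown, export and sensing, Oxgr1 had 0 counts in all 12 libraries and was not tested, and 1 of the other 2 fell between the supernatants and both fell with rIFNβ, where 25% and 24.6% of all genes were lower. Abcg2, a membrane efflux pump, fell from 31.3 ± 2.07 to 12.3 ± 0.575 CPM (log2 fold change −1.35, adjusted p = 1.12e-07) and from 33.4 ± 2.66 to 12.4 ± 1.10 CPM (−1.42, adjusted p = 6.51e-08). The 3 genes of 2-hydroxyglutarate breakdown had 2 lower between the supernatants and 1 lower with rIFNβ, 66.7% and 33.3% called, on either side of the 55.1% and 55.3% of all genes. D2hgdh, the D-2-hydroxyglutarate dehydrogenase, fell by 0.47 (adjusted p = 0.000453) and 0.36 (adjusted p = 0.00269) on the log2 scale. Adhfe1, a mitochondrial transhydrogenase scarce in every library, had −0.68 between the supernatants (adjusted p = 0.0384), a call lost without any 1 of the 3 eGFP supernatant libraries (lowest −0.74, highest −0.59), without replicate 1 or 2 of Ifnb1eGFP supernatant (−0.59 and −0.63) or without untreated control replicate 2 (−0.68), and −0.41 with rIFNβ (adjusted p = 0.193).

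**Figure D5:**
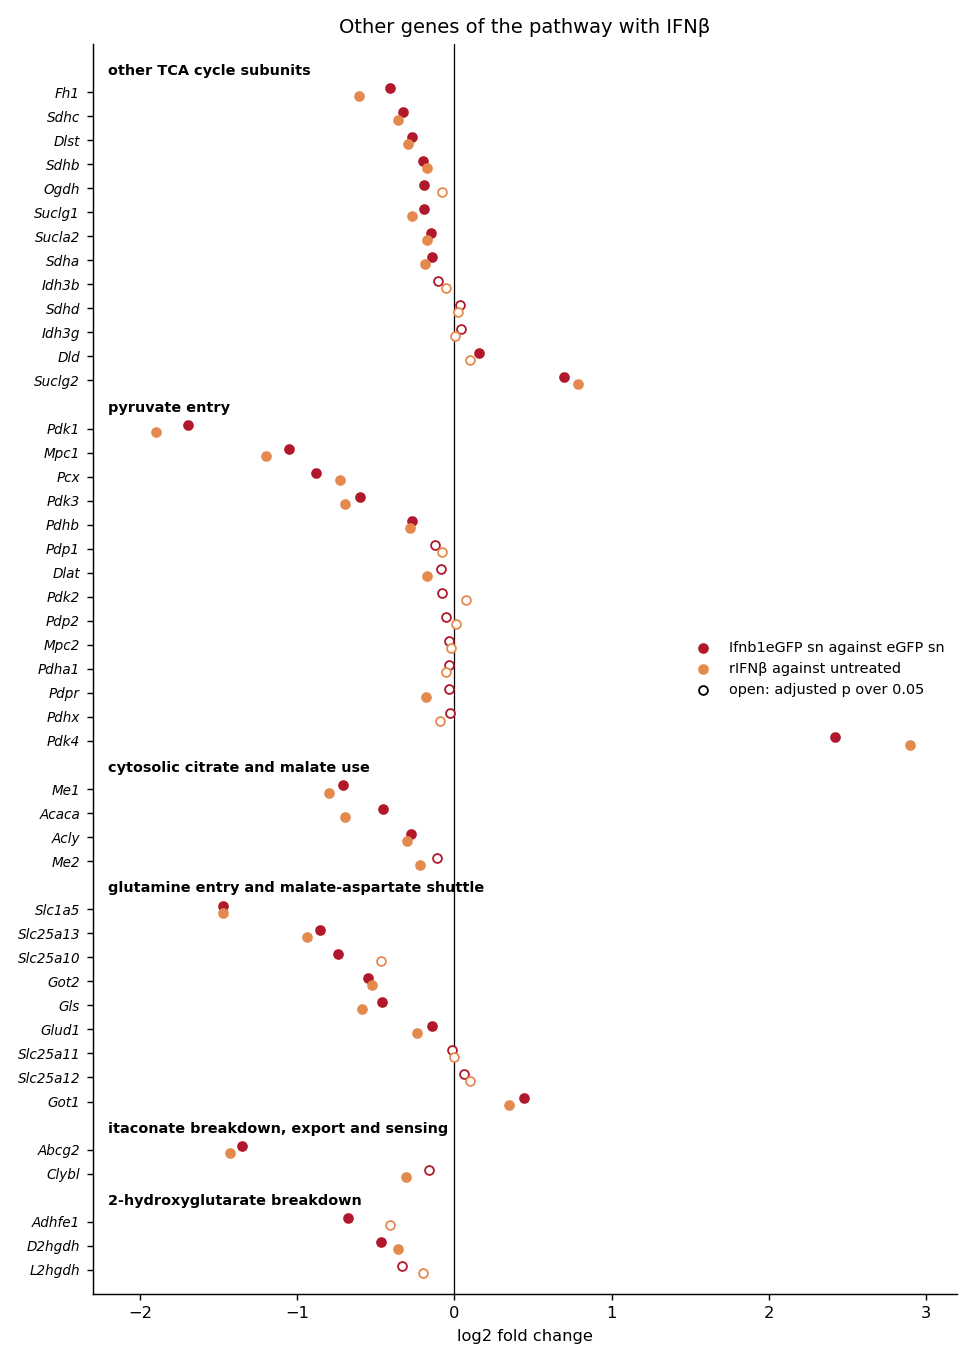
Log2 fold change with IFNβ (horizontal axis) of the tested genes of 6 other pathway lists, without 1 that is not reported here, for Ifnb1eGFP against eGFP supernatant and rIFNβ against untreated control. Filled points passed an adjusted p of 0.05, most of them lie left of 0, Suclg2 and Got1 lie to the right in both comparisons, and the fitted values of Pdk4 rest on counts of 0 to 17.

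Genes whose profile over the 12 libraries was most like that of a member were found by the root mean square difference of centred log2 CPM, as a description with no test. For Acod1 they included Eif2ak2 (0.215 log2 units), the double-stranded RNA-activated kinase, and Ifi207 (0.215), against an Acod1 range of 2.94 log2 units. Cs and Idh3a shared Micos10, of the mitochondrial inner membrane organizing system, and Hadha, a subunit of the mitochondrial trifunctional protein of fatty acid oxidation (0.0314 each for Cs, and 0.0392 and 0.0356 for Idh3a). The third gene was the respiratory complex I subunit gene Ndufs5 for Cs (0.0357) and Hadhb, the partner of Hadha, for Idh3a (0.0436). Aco1 was closest to Pdhb, a subunit of pyruvate dehydrogenase (0.0231), and Mtmr12 (0.0295). Idh1 was closest to Bnip3l (0.0417), Gng12 (0.0453) and Bcap31 (0.0517), and Idh2 to Rnf113a2 (0.0534), Mmp24os1 (0.0547) and Parvb (0.0578). Mdh2 was closest to Lasp1 (0.0360), the cytochrome oxidase subunit gene Cox4i1 (0.0399) and Cd151 (0.0402). Slc25a1 was closest to the complex I subunit gene Ndufv3 (0.0461), Paqr7 (0.0547) and Actb (0.0581). Of all genes tested, 25% and 24.6% were called lower and 30.1% and 30.7% higher in the IFNβ comparisons. Profiles this close are drawn from 15033 candidates.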

How the data were processed

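RNA of 12 libraries, 4 conditions with 3 replicates each, was prepared with a kit for stranded total RNA. The authors estimated gene counts with RSEM 1.3.3, and the submitters' processing notes name both GRCm39 and mm10, which are different builds. The deposited matrix holds these expected counts per Ensembl gene, not normalized. The annotation release and strand setting are not given in the sources used here. About 12% of all values were not whole, and expected counts were rounded before testing. Groups follow the sample labels.

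Genes passing filterByExpr (15033) were fitted with edgeR 4.0.16 in R 4.3.3 by the quasi-likelihood method, with TMM factors, a mean per condition over all 12 libraries and Benjamini-Hochberg adjustment. SE is the absolute log2 fold change divided by the root of F, and intervals use the t distribution of the fit. CPM used TMM-scaled totals, and likeness used log2 CPM with a prior count of 2. Positions and exon lengths came from GENCODE M39 on GRCm39, where 56017 of 56748 identifiers matched. The fit was tested on simulated data for the comparison between the supernatants. It recovered 67.7% of 99 genes changed by 1 log2 unit and 91.8% of 98 changed by 2, with 3 false calls. Smaller changes were not simulated, and far fewer genes were changed than were called in the data.

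The members and all lists were chosen with earlier results of these data known, promoter motifs included. Beside the members, the text names, per pathway list, the 2 genes with the largest called change in each direction between the supernatants, and the 3 tested genes most like each member called in both IFNβ comparisons. Of the genes so named, 3 are not reported here. The replicates are labelled as separate samples, and the design text speaks of mice. Same-numbered libraries of different conditions correlated in their deviations from the group means with r from 0.0582 to 0.252, over 0.1 in 13 of 18 pairs. All 3 pairs of Ifnb1eGFP supernatant and rIFNβ were over 0.1, and there the replicate block, as the main fit, called 0 members. Exact permutation of 3 against 3 libraries reaches no p below 0.1, so none was run, and p-values measure the spread between these samples. Alternatives were edgeR's RLE factors, DESeq2 1.42.0, no filter, a replicate block, only the compared conditions, the stricter threshold and each library left out.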

Additional observations from a re-analysis of the deposited data

How the results depend on the processing

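The 8 calls among the 9 genes held in both IFNβ comparisons with no filter, RLE factors in edgeR, DESeq2, the replicate block and each library left out (8 to 8 members called). The stricter threshold left 1 member in each comparison, Acod1, which entered the test only through libraries with IFNβ. With 1 library left out, Acod1 came as low as 1.94 between the supernatants, under the 2 log2 units of that threshold. Fitting only the compared conditions added Mdh1 with rIFNβ (−0.11, adjusted p = 0.0317). Acod1 ranged from 1.94 to 2.50 on the log2 scale between the supernatants and from 2.26 to 2.74 with rIFNβ over all alternatives. The replicate block gave Acod1 2.18 and 2.48, with 8 members called in each, and changed no other call of a member. All 12 libraries correlated best with their own number, a hint from the data and not from the design. Pathway genes called ranged from 25 to 32 between the supernatants and from 25 to 33 with rIFNβ, in settings chosen after the data were seen. Dld lost its call between the supernatants with RLE factors (0.12), DESeq2 (0.13), no filter (0.14) and only the compared conditions (0.15), and Adhfe1 with DESeq2 (−0.71) and no filter (−0.70), and Adhfe1 gained one with rIFNβ without rIFNβ replicate 1 (−0.69). The cause of these shifts was not tested.

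No sign change met a called value. Without a filter, Idh2 in eGFP supernatant against untreated control came to 0.0033, and the interactions of Aco1 and Idh3a to −0.0008 and −0.0226. With each library left out, Mdh1 ranged from −0.1378 to 0.0071 between the supernatants, from −0.0143 to 0.0197 in eGFP supernatant against untreated control, from −0.0175 to 0.0853 in Ifnb1eGFP supernatant against rIFNβ, from −0.0086 to 0.0438 in the average of the supernatant comparisons and from −0.0179 to 0.0830 in the interaction. Idh2 ranged from −0.0655 to 0.0023 in eGFP supernatant against untreated control, from −0.1649 to 0.0278 in Ifnb1eGFP supernatant against rIFNβ and from −0.1378 to 0.0568 in the interaction. In Ifnb1eGFP supernatant against rIFNβ, Acod1 ranged from −0.2118 to 0.2599 and Slc25a1 from −0.2157 to 0.0257, and Slc25a1 from −0.0550 to 0.0643 in the average. Interactions ranged from −0.5314 to 0.0037 for Acod1, from −0.0295 to 0.0361 for Idh3a and from −0.0899 to 0.0726 for Mdh2. The low counts of Acod1, 6 to 13 per library without IFNβ, limit every comparison of that gene among those libraries.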
